A study of Talpa occidentalis with 6 samples.

Results

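The regions described here are stretches of the genome of the Iberian mole (Talpa occidentalis). They lay in chromatin state 1, taken here as the most accessible, in both testicular tissues. These tissues are the testicular part of the female ovotestis and the male testis. In the ovarian part of the ovotestis the regions lay in a state taken as less accessible. They were found as runs of adjacent 200 bp bins that held state 1 in both testicular tissues and over which the ovarian part held only states 3, 4 or 5. On 16 large scaffolds of the assembly talOcc4, numbered 1 to 17 without 15, there were 23638 runs of state 1 common to the testicular part and the testis, called joint runs below. Of these, 762 met the rule for the ovarian part. These are called testicular regions below.

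Female moles of this species carry ovotestes, gonads with an ovarian part that holds the germ cells and a testicular part that lacks them and secretes androgens. The testis of the male holds Sertoli cells, which surround the germ cells, and Leydig cells, which make androgens, and the somatic part of this programme is also present in the testicular part of the ovotestis. Open chromatin marks promoters and distal regulatory elements in use in a tissue, and elements open in some tissues but not in others lie mostly away from promoters in mammals.

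All 6 samples came from wild-type moles at postnatal day 7, with 2 samples each of the ovarian part, the testicular part and the testis. Accessible DNA was read out by ATAC-seq, in which a transposase cuts and tags open DNA, on 50000 dissociated cells per reaction. The deposited values are 1 segmentation per tissue, which assigns each 200 bp bin a state from 1 to 5, and both samples of a tissue share it, so no spread between samples and no test between tissues could be computed. The sequencing depth is unknown. By the library numbers in the sample titles, both parts belong to 1 consecutive series of libraries and the testis to another. In bulk tissue, fewer cells of a type with an open site and a less open site in each cell cannot be told apart. Intervals given with shares are Wilson 95% intervals, and they cover counting error only and treat regions as independent, which neighbours on a scaffold are not.

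State 1 was taken as accessible because it lies at 1 end of an ordered series of states. Depending on the tissue, 99.7% to 99.8% of state boundaries on the 16 scaffolds joined states with neighbouring numbers. State 1 covered 0.938% of these scaffolds in the ovarian part, 0.905% in the testicular part and 0.923% in the testis. The tissues thus held nearly equal amounts of it. State 4 was the most common, at 58.2% to 60% of bins, and state 3 followed with 32% to 34%. State 5 was also rare, at 2.24% in the ovarian part, 2.28% in the testicular part and 2.1% in the testis.

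Over nearly all testicular regions the ovarian state was 3, the nearest to state 1 that the rule allows. How open state 3 is was not tested. The ovarian part held state 3 over 739 of the 762 and state 4 over the other 23, and state 5 over 0. Each region had a single ovarian state along its whole length. The rule chose the regions by these values, so they are a description. Just outside the rule were 4324 joint runs over which the ovarian part reached state 2, or 18.3% of joint runs, and over 18552 further joint runs, 78.5%, it reached state 1. The testicular regions were 3.22% of joint runs (3.01% to 3.46%).

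The other pairs of tissues left fewer regions of this kind. Runs of state 1 common to both parts of the ovotestis numbered 20562, and the testis held only states 3 to 5 over 45 of them, or 0.219% (0.164% to 0.293%). Runs common to the ovarian part and the testis numbered 21044, and the testicular part held only states 3 to 5 over 80, or 0.38% (0.306% to 0.473%). There were thus 6.1 testicular regions for each region of these other patterns together. The size of this excess depended on which states count as open. With states 1 and 2 together there were 17321 runs open in both testicular tissues and not in the ovarian part, against 9294 open in both parts only and 11140 open in the ovarian part and the testis only, which is a ratio of 0.848 to the other patterns together. By count, the testicular pattern was the most frequent of the 3 under both definitions. With states 1 and 2 as open, the 17321 were 22.6% of 76671 joint runs. For the other pairs the runs in common were not counted under this definition, so shares are not compared.

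**Figure D1:**
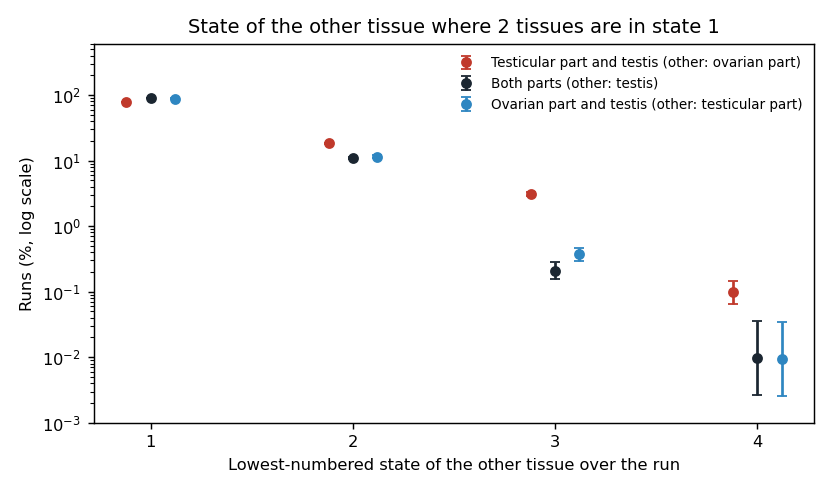
Share of runs of state 1 common to a pair of tissues, in percent on a log scale, by the lowest-numbered state that the other tissue holds over the run. Points are shares and bars are Wilson 95% intervals. At state 3 the share is 3.13% where the ovarian part is the other tissue, against 0.209% for the testis and 0.371% for the testicular part. State 5 is not drawn because its count is 0 for each pair.

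Testicular regions were short. Of the 762, 522 spanned 200 bp, 223 spanned 400 bp, 14 spanned 600 bp and 3 spanned 800 bp. A single bin thus made up 68.5% of them, against 30.5% of all joint runs. The share of joint runs that met the rule was 7.25% at 200 bp, 3.29% at 400 bp, 0.359% at 600 bp and 0.123% at 800 bp. Among the 3314 joint runs longer than 800 bp it was met by 0. Since the rule asks every bin of a run to be low in the ovarian part, length was to some extent chosen by it.

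The segments of state 1 around a testicular region reached further in the testis than in the testicular part. The testis segment was the longer of the pair at 260 regions, or 34.1% (30.8% to 37.6%), and the shorter at 96, or 12.6% (10.4% to 15.1%). At the other 406 the lengths were equal, and at 399 regions both edges coincided. The median segment was 400 bp in the testis and 200 bp in the testicular part, with a longest of 1200 bp and 1000 bp. Runs in state 1 in all 3 tissues, 18615 in number, went the other way, with the testis longer at 19.3% and shorter at 30.7%. At joint runs with the ovarian part in state 2 the shares were 25.4% and 25%. The same order held among runs of 200 bp alone, where the testis was longer at 36.6% and shorter at 15.3% of testicular regions, and longer at 23.5% and shorter at 28.7% of runs in state 1 in all 3 tissues. The testis is the tissue of the separate library series, and what that contributes was not tested.

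Around most testicular regions the ovarian part stayed at state 3 or a less accessible state over the whole stretch that was raised in the testicular tissues. The stretch around a region where both testicular tissues held state 1 or 2 had a median of 800 bp and reached at most 4400 bp. Over that whole stretch the ovarian part never passed above state 3 at 702 regions (679 at state 3 and 23 at state 4). It reached state 2 at 54 of these stretches and state 1 at 6. The rule already set the ovarian state over the region itself, 200 bp at the median, and states mostly change stepwise. These counts are therefore largely set by the choice of regions and are a description. The ovarian segment at state 3 that covered a region was bounded by state 4 on both sides at 471 of the 739 regions at state 3, or 63.7% (60.2% to 67.1%). Over the 16 scaffolds, 47.5% of the 308885 ovarian segments at state 3 had state 4 on both sides, and such segments held 45.2% of all ovarian state 3 bins. Those over testicular regions ranged from 200 to 24800 bp in length. At 64 regions the ovarian segment lay between stretches of state 2, and at 203 it had state 2 on 1 side and state 4 on the other. The covering ovarian segment had a median length of 2.8 kb (95% interval of the median 2.6 to 3.2 kb) and a longest of 32.8 kb.

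Few testicular regions had ovarian state 1 within 1 kb. The rule and the stepwise order of states limit how near it can lie. The distances are not set against those from other positions, so whether they are unusual was not tested. Ovarian state 1 lay within 1 kb of 2 testicular regions, or 0.262%, and within 5 kb of 80, or 10.5%. Its median distance was 29.2 kb (26.8 to 31.8 kb). Ovarian state 1 or 2 was nearer, with a median distance of 6.4 kb (5.4 to 7 kb), and lay within 1 kb of 87 regions, or 11.4%.

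The contrast fell off quickly with distance. In the bins next to a region, the ovarian part held state 3 at 92.1% and state 4 at 6.69%. The testicular part held state 2 in 92.4% of the same bins and the testis in 79.1%, where a further 20.5% were still state 1. At 1 kb the ovarian part held state 3 at 53.3% and state 4 at 43.9%, whereas state 3 covered 71.9% in the testicular part and 70.4% in the testis. In each tissue, states 1 to 3 were thus more frequent near a region than further away. Within 5 kb on either side, states 1 and 2 took up 4.14% of bins in the ovarian part, 14.4% in the testicular part and 16.6% in the testis. The bins nearest to a region are tied to it by the segmentation and are given as a description.

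**Figure D2:**
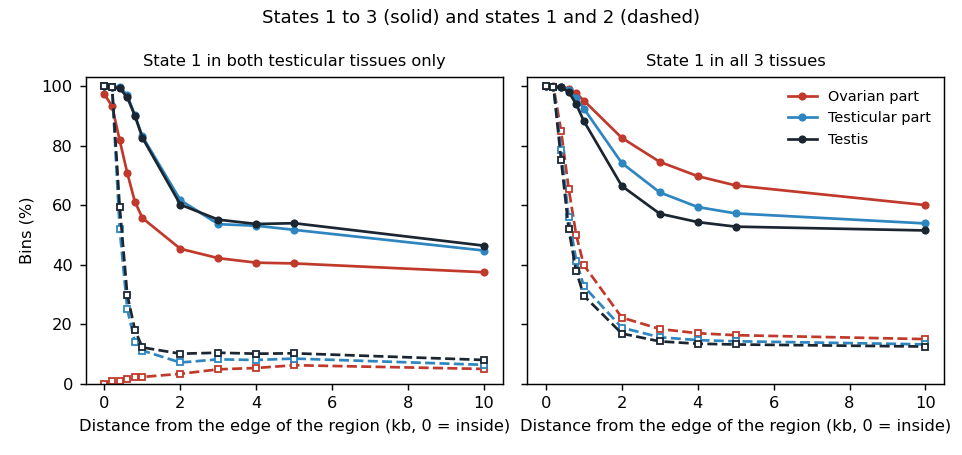
Percent of bins in states 1 to 3 (solid lines) and in states 1 and 2 (dashed lines) against distance from the edge of the region in kb, with the region itself at 0, for the 762 testicular regions (left) and the 18615 runs in state 1 in all 3 tissues (right). Around the testicular regions the ovarian part lies under both other tissues at each distance drawn, and around the shared runs it lies above them at each distance from 200 bp on.

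By states 1 to 3, the surroundings of testicular regions were lower in the ovarian part far beyond the regions themselves. Between 20 and 50 kb away, on both sides, states 1 to 3 covered 40.7% of bins in the ovarian part, 46.3% in the testicular part and 47.1% in the testis. The gap, taken as ovarian minus testicular part, was -5.57 percentage points, with an SD of 4.1 points between the 16 scaffolds, and the gap to the testis was -6.42 points. Over all bins of these scaffolds the shares were 37.8%, 39.1% and 39.7%, a gap of -1.35 points between the parts. The gap around testicular regions narrowed with distance, from -14.3 points at 1 to 5 kb to -6.58 at 5 to 20 kb, -5.13 at 50 to 100 kb, -4.73 at 100 to 200 kb and -3.74 at 200 to 500 kb. At 20 to 50 kb the ovarian part was below the testicular part at 495 of the 762 regions, or 65%, and above it at 261. It was below at 52.9% of joint runs with the ovarian part in state 2. The share was 46.8% for runs in state 1 in the ovarian part alone and 36.8% for runs in state 1 in all 3 tissues. By states 1 and 2 alone the gap between the parts was -0.564 points at 50 to 100 kb and -0.276 at 100 to 200 kb. At 200 to 500 kb it was 0.0961 points, against 0.499 over all bins. There the ovarian part was below the testicular part at 320 regions, or 42%, and above it at 437. The share below was near this, at 40.7%, for joint runs with the ovarian part in state 2. It was 31.4% for runs in state 1 in all 3 tissues and 24% for runs in state 1 in the ovarian part alone. The bins beyond a region did not enter the rule. What choosing regions by a low ovarian state contributes to these surroundings was not tested, and the mirror-image choice is described below.

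Runs in state 1 in all 3 tissues lay in surroundings of the opposite kind. At 20 to 50 kb their states 1 to 3 covered 56.6% in the ovarian part, 53.1% in the testicular part and 50.3% in the testis, so the ovarian part was 3.44 points above the testicular part. On each of the 16 scaffolds the gap around testicular regions was below the gap around these shared runs. Around testicular regions the ovarian part was below the testis on 16 of 16 scaffolds and below the testicular part on 15. Scaffold 4 was the exception, at 0.51 points above the testicular part, and scaffold 8 had the largest gap, at -13.6 points. Joint runs with the ovarian part in state 2 lay between, at -1.98 points. Over all bins of a scaffold, the ovarian part was above the testis only on scaffolds 7, 14 and 17. It was above the testicular part only on scaffolds 2, 4, 7, 11 and 17. On most scaffolds the order around testicular regions was thus also that of all bins.

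From 1 kb outwards, the surroundings of the mirror-image regions departed less from the rest of the scaffolds by states 1 to 3. Runs in state 1 in the ovarian part alone, with states 3 to 5 in both testicular tissues, numbered 1095, or 3.63% of ovarian runs (3.42% to 3.84%). At 20 to 50 kb from them states 1 to 3 covered 41.6% in the ovarian part and 40.9% in the testicular part, a gap of 0.727 points, and at 100 to 200 kb the gap was -0.391 points. Set against the gap of all bins, these were 2.07 and 0.956 points, and those of testicular regions were -4.22 and -3.38 points. Within 1 kb the mirror-image regions departed more, at 31.82 points against -20.04 for testicular regions. At 1 to 5 kb the values were 11.01 and -12.92 points. By states 1 and 2 alone the picture was more even. At 20 to 50 kb the gap was -0.949 points around testicular regions and 1.44 points around ovarian ones, and 0.499 points over all bins. Set against the gap of all bins, the values were -1.45 points for testicular regions and 0.942 points for ovarian ones. These regions are compared as classes, and no test between samples stands behind the differences.

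**Figure D3:**
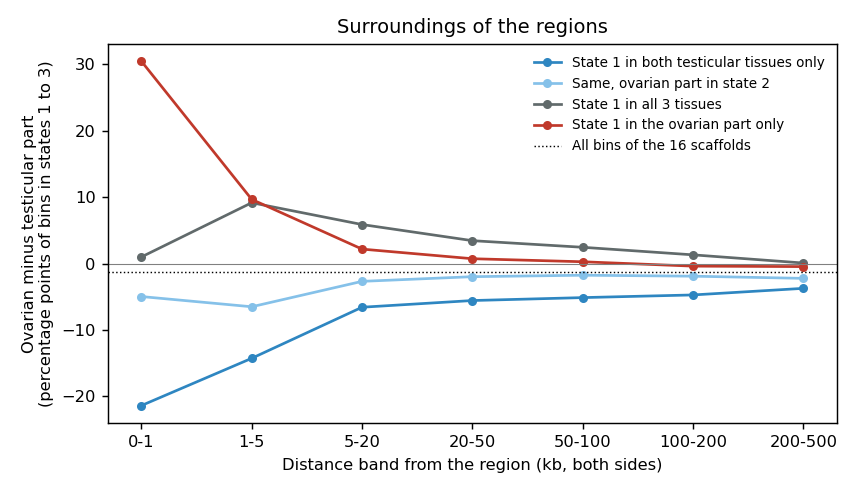
Difference between the ovarian and the testicular part in the percent of bins in states 1 to 3, in percentage points, by distance band in kb on both sides of the region, for 4 classes of region. The dotted line is the difference over all bins of the 16 scaffolds, -1.35 points. Testicular regions lie below that line in each band and reach -3.74 points at 200 to 500 kb.

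Testicular regions were scattered, and had another testicular region within 50 kb more often than regions of the other classes had one. The median distance from a region to the nearest other one was 522.7 kb (467.8 to 649.6 kb), and 108 regions, 14.2% (11.9% to 16.8%), had another within 50 kb. The same 762 regions served as the target for the other classes. Runs open in the testis alone numbered 1763, or 5.04% of testis runs, and runs open in the testicular part alone 222, or 0.741% of its runs. Within 50 kb of a testicular region lay 9.09% of joint runs with the ovarian part in state 2 (8.27% to 9.98%), 6.41% of runs open in the testis alone (5.36% to 7.65%) and 6.31% of runs open in the testicular part alone (3.79% to 10.3%). The shares were 3.7% for runs in state 1 in all 3 tissues (3.44% to 3.98%) and 3.01% for runs open in the ovarian part alone (2.15% to 4.2%). Conversely, a run open in the ovarian part alone had another of its class within 50 kb in 13.3% of cases, and a testicular region had such an ovarian run within 50 kb in 4.46%. That last share was 5.79% for runs in state 1 in all 3 tissues. The classes differ in number, so shares with different targets are not compared. With testicular regions of at least 400 bp alone, 6.67% had another such region within 50 kb.

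Testicular regions lay further from shared open chromatin than shared runs lay from each other. The median distance to the nearest run in state 1 in all 3 tissues was 49.9 kb (44.4 to 56.2 kb), and 10 regions, 1.31%, had one within 2 kb. For joint runs with the ovarian part in state 2 the median was 24.9 kb, and from 1 shared run to the next it was 15.4 kb. Runs open in the ovarian part alone, with a median of 51 kb (44.8 to 56 kb), and in the testis alone, with 55.6 kb (51.2 to 61.6 kb), were similarly far or somewhat further. Distance from shared open chromatin was therefore not particular to the testicular regions.

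Joining regions at most 50 kb apart gave 654 single regions, 48 pairs and 4 groups of 3. The tightest group lay on scaffold 7 from 54194201 to 54203000 and spanned 8.8 kb. Its regions, of 200 bp each, started at 54194201, 54197601 and 54202801. Over the span states 1 and 2 covered 34.1% of bins in the testicular part, 34.1% in the testis and 0% in the ovarian part, which held state 3 over the 3 regions. At the first and the third region the testis segment was 600 bp and that of the testicular part 200 bp. The 1 Mb window around this group, from 54000001 to 55000000, held 5 testicular regions among 19 joint runs, and states 1 to 3 covered 43.7% of it in the ovarian part, 60.9% in the testicular part and 57.7% in the testis.

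**Figure D4:**
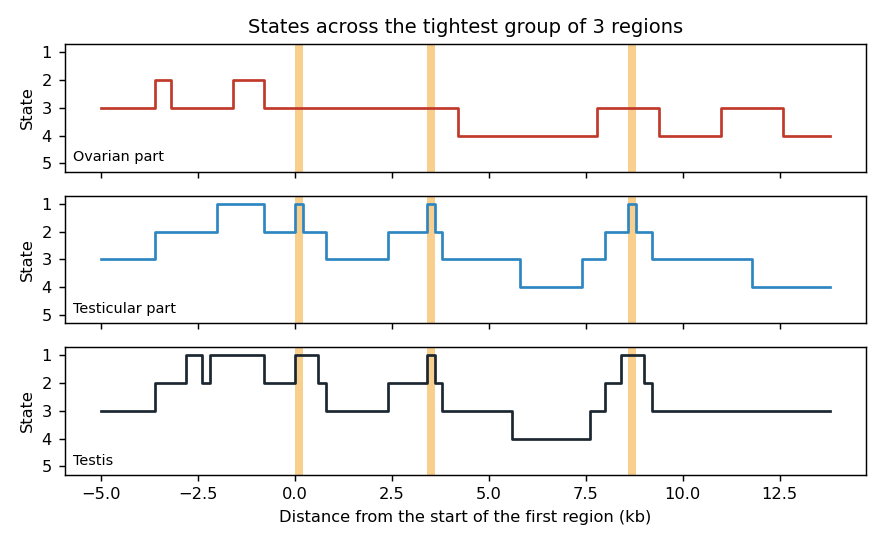
Chromatin state, from 1 at the top to 5 at the bottom, in each tissue against distance in kb from the start of the first region, for the group of 3 regions on scaffold 7. Orange bands mark the 3 regions of 200 bp. Both testicular tissues reach state 1 in each band and the ovarian part stays at state 3. The stretch of state 1 in both testicular tissues left of 0 kb is not a region by the rule because the ovarian part reaches state 2 there.

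The group on scaffold 9, from 65102201 to 65137600, spanned 35.4 kb and had the lowest ovarian share of states 1 to 3 of the 4 groups. These states covered 13.6% of its bins in the ovarian part, 41.8% in the testicular part and 50.8% in the testis. The ovarian part held state 4 over 2 of its 3 regions. At 29 to 29.4 kb from the start of the group the order was reversed. There the ovarian part held state 1, the testicular part state 2 and the testis state 2 or 3. The group on scaffold 16, from 12331001 to 12367400, was alike in extent and spanned 36.4 kb. There the shares were 24.7% in the ovarian part, 50.5% in the testicular part and 50.5% in the testis. The group on scaffold 1, from 123649601 to 123703200, was the widest at 53.6 kb and held 1 run in state 1 in all 3 tissues. Its shares of states 1 to 3 were 54.9% in the ovarian part, 62.3% in the testicular part and 82.8% in the testis, so that here the testis stood apart from both parts.

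The longest testicular regions met the rule over up to 4 bins. The region on scaffold 9 at 84031201 to 84032000 was 800 bp long in both testicular tissues and lay 167 kb from the nearest run in state 1 in all 3 tissues. The ovarian part held a segment of state 3 of 1.8 kb across it, between stretches of state 4. The region on scaffold 3 at 109792401 to 109793200 was 800 bp long in the testicular part and 1000 bp in the testis, and lay 189 kb from shared open chromatin. The region on scaffold 1 at 119852601 to 119853400 was 800 bp long in both and lay 3 kb from it. In each of the 3 the ovarian state was 3.

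Of the 14 regions of 600 bp, the first 7 by scaffold number and position complete the 10 longest, with the ovarian part again at state 3. They lay at 53920601 to 53921200 on scaffold 1, 129280001 to 129280600 on scaffold 2, 7194401 to 7195000 on scaffold 3 and 133974201 to 133974800 on scaffold 4. The others lay at 122815601 to 122816200 on scaffold 6 and at 48971001 to 48971600 and 54585601 to 54586200 on scaffold 7. The most isolated was that at 48971001 on scaffold 7, at 325.8 kb from the nearest run in state 1 in all 3 tissues, where the ovarian segment of state 3 was 1 kb long. At 4 of these 7 the testis segment was 800 bp, and at the other 3 it was 600 bp as in the testicular part.

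The deepest contrast, state 1 in both testicular tissues and state 4 in the ovarian part, was found at 23 regions on 8 scaffolds. The span was 200 bp at 19 of them, 400 bp at 3 and 600 bp at 1. The ovarian segment of state 4 that covered them ranged from 0.8 to 32.8 kb, with a median of 9.8 kb. These lengths are not set against those of ovarian state 4 segments elsewhere. Scaffolds 2, 8 and 9 held 5, 4 and 4 of the 23. The longest of the 23, on scaffold 9 at 83746601 to 83747200, lay 284 kb from the 800 bp region at 84031201 described above. It lay in the longest of these state 4 segments, 32.8 kb. The testis segment there was 800 bp and that of the testicular part 600 bp. On scaffold 8, 3 of the 23 lay near the start of the scaffold, at 1318001 to 1318400, 3009401 to 3009600 and 3095801 to 3096000. The first of these was 396.6 kb from the nearest run in state 1 in all 3 tissues, the largest distance among the 23, whose median was 33.6 kb.

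Each of the 16 scaffolds held testicular regions, from 10 on scaffold 17 to 64 on scaffold 2. Per length, the density ran from 0.169 per Mb on scaffold 17 to 0.53 per Mb on scaffold 11 and 0.526 per Mb on scaffold 8. As a share of joint runs, scaffold 6 had the highest value, 4.64% (3.54% to 6.07%), and 15 scaffolds lay between 2.43% and that value. Among these 15, neighbours in this order had overlapping intervals, but not all pairs did. The interval of scaffold 12, with the lowest share of the 15, was 1.83% to 3.23% and lay below that of scaffold 6. Scaffold 17 stood apart at 0.718% (0.39% to 1.32%), although it had the highest density of joint runs, 23.6 per Mb. Among runs of at most 400 bp its share was 1.22% (0.661% to 2.22%), against 4.13% to 7.7% on the others. States 1 to 3 covered more of scaffold 17 in the ovarian part, 53.4%, than in the testicular part, 51.2%, or the testis, 47.3%, and what this contributes to its low share was not tested.

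**Figure D5:**
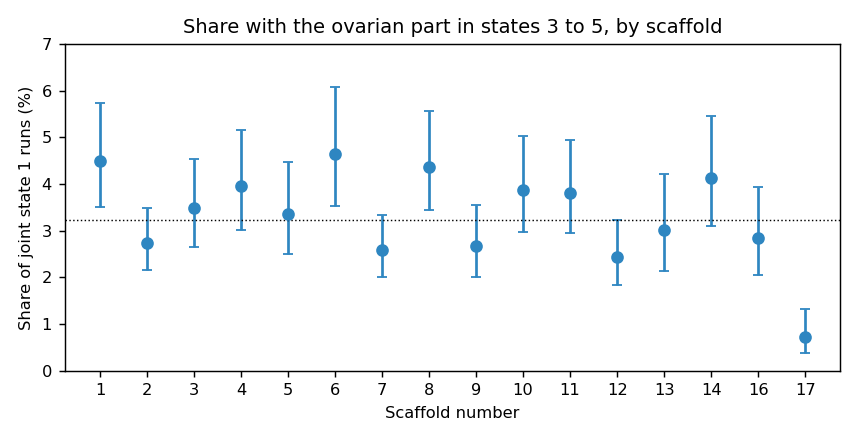
Share of joint state 1 runs, in percent, over which the ovarian part held only states 3 to 5, by scaffold number. Points are shares, bars are Wilson 95% intervals and the dotted line is the share over the 16 scaffolds, 3.22%. The interval of scaffold 17 ends at 1.32%, below the lowest point of the other scaffolds, 2.43%.

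At the scale of 1 Mb, testicular regions made up a larger share of joint runs where the testicular part had more of states 1 to 3 over the whole window. Of 1913 windows filled to at least 80%, 65 were higher by 20 percentage points or more in the testicular part than in the ovarian part, and they held 45 testicular regions, or 5.91% (4.44% to 7.81%), against 2.12% of joint runs (1.95% to 2.32%). The 7 windows higher in the ovarian part by that margin held 1 testicular region and 133 joint runs. Most testicular regions thus lay outside both kinds of window. Without those in the 65 windows, the ovarian part still differed from the testicular part by -4.35 points at 20 to 50 kb from the remaining 717. No testicular region lay in 1354 windows, 406 held 1, and the windows with the most, 5 each, were the one on scaffold 7 described above and the one on scaffold 9 from 65000001 to 66000000.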

How the data were processed

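The deposited mole segmentations give, per the labels, 1 chromatin state number (1 to 5, a category) for both samples of a tissue together; how the authors assigned the states is not stated there. STAR 2.6.1d and mm9 are named in the submitters' processing notes without a role. All comparisons take state numbers as equivalent across the 3 tissues, which was not checked. Segments were expanded to 200 bp bins. Runs, distances, flanks and shares were computed with Python 3.11.15, numpy 2.4.6 and scipy 1.17.1, and run finding, distances and flanks were checked on simulated segmentations. Intervals of medians come from order statistics. Positions are 1-based on talOcc4, and windows span 1 Mb.

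The regions and all comparisons were chosen with earlier results of these data known. The regions named are the 10 longest, those with the ovarian part in states 4 or 5, and groups of 3 or more within 50 kb. Genes, sequence content and motifs were not analysed here: the gene annotation used by the study lies on talOcc3, and no genome of talOcc4 was used. The mouse segmentations were not used.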

Additional observations from a re-analysis of the deposited data

How the results depend on the processing

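Each tissue has 1 segmentation, so neither a spread between samples nor leaving out a sample could be computed. No paired analysis was possible because the result comes from no test and both samples of a tissue share 1 segmentation. Of 42 values under an alternative, 18 stayed within the limits set, 23 moved and 1 changed sign, the cause of which was not tested. The limits differed between results. The 42 include the gap between the parts on each scaffold alone. Its limit was the SD between these same scaffolds, 4.1 points, so most of these values stay within it by construction. The count of 18 is therefore not a measure of how stable the results are.

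The number of testicular regions was 774 on all scaffolds without scaffold 15 and 924 with bins judged one by one. It was 17321 with states 1 and 2 as open, 5086 with ovarian states 2 to 5, 240 with runs of at least 400 bp and 23 with ovarian states 4 and 5. The share of joint runs was 1.46% at 400 bp or more, 22.6% with states 1 and 2 as open and 5.33% for runs of at most 400 bp, an alternative chosen after seeing the data. The ratio to the other patterns was 8.89 at 400 bp or more, 5.75 with states 4 and 5 as not open and 0.848 with states 1 and 2 as open. With regions and shared open runs both kept at 400 bp or more (240 and 13412), the median distance was 65.3 kb to a shared run and 2103.8 kb to the next region, and 6.67% had another within 50 kb. Groups of 3 numbered 2 at 20 kb and 10 at 100 kb. States 1 and 2 in flanks of 2 and 20 kb covered 2.55% and 5.22% in the ovarian part, 23.8% and 8.99% in the testicular part and 26.7% and 10.7% in the testis. The gap in states 1 to 3 at 20 to 50 kb, a measure chosen after seeing the data, was -5.54 points with regions of at least 400 bp and -13.6 on scaffold 8, -10.7 on scaffold 10, -1.4 on scaffold 13, -0.895 on scaffold 3 and 0.51 on scaffold 4 alone. Sequence content, motifs and distance to gene starts were planned and not run.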
